A study of Mus musculus with 8 samples.

Results

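Mirtrons are microRNAs (miRNAs) made from introns. The 312 mature miRNAs described here carry the names miR-6896 to miR-7118, a run of mouse miRNAs that lie almost all in introns. A miRNA was taken when it stood in both the CSF and the plasma table, when its name fell between miR-6896 and miR-7118, and when its mean over the 8 libraries was 10 or more unique molecular identifiers (UMIs, each marking 1 captured molecule). The tables shared 1960 miRNAs, of which 411 fell in the number range, and 99 of these had a lower mean. The values just inside the limit were those of miR-6955-3p and miR-7086-3p, with a mean of 10 UMIs each, and the values just outside those of miR-7015-3p and miR-7037-5p, with 9.88 UMIs each. The members were thus selected on their mean UMI count over all libraries, and that level is given only as a description.

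The series profiled exosomal small RNA from cerebrospinal fluid (CSF) and plasma of adult wild-type mice, all labelled as batch 1. Mice had received DOCA-salt, a mineralocorticoid (deoxycorticosterone acetate) given with salt to raise blood pressure, or no treatment, called baseline. There were 8 libraries: CSF of DOCA-salt females, DOCA-salt males, baseline females and baseline males, and plasma of the same 4 kinds of mice. With 1 library for each combination of fluid, sex and treatment, p-values measure the spread between libraries that differ in sex and treatment, and the labels do not say whether CSF and plasma came from the same mice or how many mice a library pooled.

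In the usual pathway a miRNA hairpin is cut out of its transcript by the nuclease Drosha and then opened by the nuclease Dicer into a 5p and a 3p arm. In a mirtron, splicing and the opening of the lariat replace Drosha, so that the hairpin's ends are intron ends. In a tailed mirtron only 1 end of the hairpin is a splice site, and the rest of the intron is trimmed away. A 3p arm at the 3′ splice site carries the pyrimidine-rich stretch and the closing AG of the intron, and its partner strand is rich in purines. Either arm can be loaded into an Argonaute protein, which pairs with targets mainly through the seed, bases 2 to 8 of the miRNA.

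The first set of sequences shows the 5 members with the largest separated rise in CSF, and the second the 5 with the largest separated fall. Sequences are from RefSeq (GRCm38.p6), read 5′ to 3′, with the seed in capitals.
miR-6947-5p: cAUCCAGUggagaggcucgug
miR-6965-3p: uCUGUGCUcggucucgcuccag
miR-7036a-5p: aGCGGGGUucgguggggaagaga
miR-7058-3p: cUCGUUCCuuccuuucuuccag
miR-7061-5p: uAUGGAAAuaggaggugauuuu
miR-6963-5p: gGUGGGAUggauggcagaaccugg
miR-6900-3p: uGGUGAUGggcucucuuguag
miR-6907-3p: aACGUGCGuuucuuuuguguccu
miR-7036b-3p: uUCCUGGUgggccucggggucc
miR-7026-5p: uUCUGAGAccaugggguauau
The 3p arms miR-6965-3p, miR-7058-3p and miR-6900-3p end in AG. No 2 of these 10 share a seed.

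A whole hairpin shows how the arms lie. In miR-7045, whose 3p arm ends at the last base of its intron in Chd4 (chr6:125097024-125097086, plus strand, GRCm38), the 5p arm and the 3p arm are in capitals and the loop and flank in lower case.
miR-7045: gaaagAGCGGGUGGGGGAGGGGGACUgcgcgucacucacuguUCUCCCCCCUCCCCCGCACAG
The purine-rich 5p arm faces a 3p arm made mostly of C and U, and the hairpin stops at the intron's AG.

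Of the 312 members, 163 were 5p arms and 149 were 3p arms. They came from 188 hairpins, 124 with both arms among the members, 39 with the 5p arm only and 25 with the 3p arm only. Against GENCODE M21 on the files' build, 311 of 312 members lay inside an annotated intron on their own strand, and 50 also overlapped an annotated exon of some transcript.

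The arms differed in where they stood in the intron. The 3p arm ended within 5 bases of the intron's last base in 145 of 149 members, and exactly on it in 118. The exceptions were miR-6936-3p, miR-7025-3p, miR-7036b-3p and miR-7084-3p. The 5p arm started within 5 bases of the intron's first base in 16 of 163 members, 15 of them exactly. Among the other miRNAs with a mean of 10 or more UMIs and a number of 1000 or above, 24 of 126 3p arms and 5 of 140 5p arms stood at an edge. Among those numbered below 1000, including let-7, 4 of 208 3p arms and 2 of 198 5p arms did.

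Intron lengths differed by arm, with overlap. The introns that ended in a 3p member had a median length of 450 bases (67 to 19696). Of these 145, 99 were longer than 150 bases and 46 were not. The introns that began with a 5p member had a median length of 84 bases (66 to 137). In 11 hairpins both arms stood within 5 bases of the edges, among them miR-7018, miR-7080 and miR-7082, so that the hairpin filled the intron as in a conventional mirtron. In 80 of the 120 hairpins with both arms among the members and the 3p arm at the edge, the intron was longer than 150 bases and the 5p side of the hairpin lay inside it, the layout of a tailed mirtron.

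**Figure D1:**
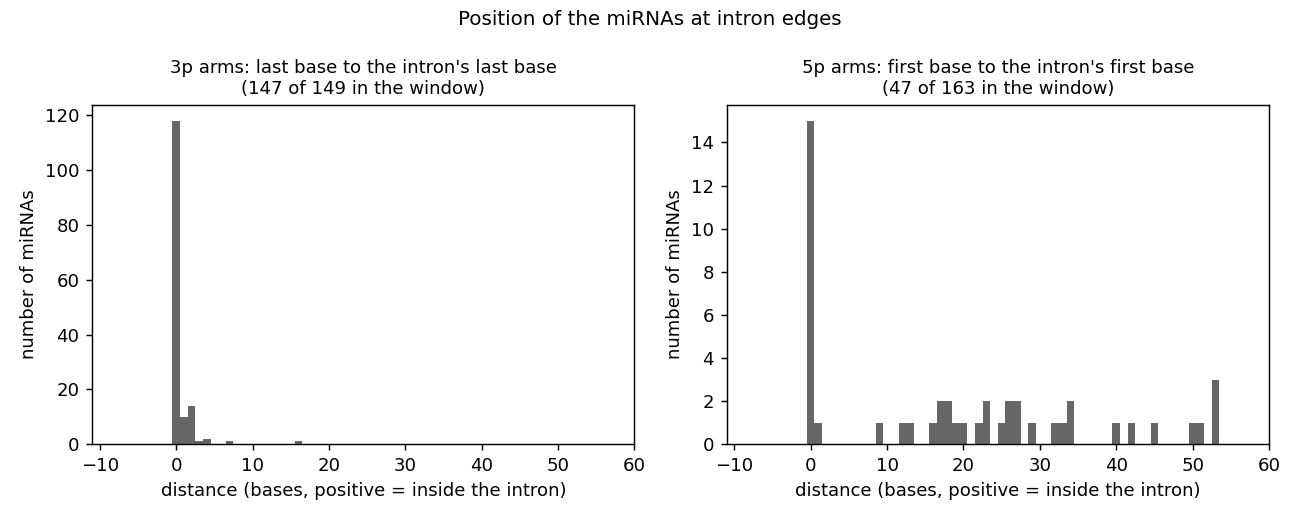
Distance in bases from the last base of each 3p arm to the last base of its intron (left) and from the first base of each 5p arm to the first base of its intron (right), with the number of miRNAs on the vertical axis; members outside the window are not drawn. Of 149 3p arms, 118 stand at 0, against 15 of 163 5p arms.

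Sequences were then compared with those of the other miRNAs. A mature sequence was found in RefSeq for 275 members. The 3p arms ended in AG in 104 members, 78.2% of those with a sequence. Among other 3p arms, 25 of 114 (21.9%) numbered 1000 or above and 11 of 185 (5.95%) numbered below 1000 did. A 3p arm that ends on its intron's last base carries the closing AG, so this count largely restates position. Whether sequence differed with position among the members was not tested. The median share of pyrimidines in a 3p arm was 72.7% in members, 59.1% in the other high-numbered and 52.4% in the low-numbered miRNAs. The median share of G in a 5p arm was 45.5% in members, 36.4% in the other high-numbered and 27.3% in the low-numbered miRNAs. In base composition, then, the members stood apart from the other miRNAs of the same libraries in both arms, G-rich on the 5p side and pyrimidine-rich on the 3p side.

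Seeds were rarely shared. The 275 sequences held 256 seeds, and 18 seeds were held by more than 1 member, 37 members in all. The seed with the most members was CACCCUG, which 3 members from different host genes carried.
miR-7018-3p: uCACCCUGcugccggcuugcag
miR-7023-3p: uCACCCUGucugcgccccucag
miR-7068-3p: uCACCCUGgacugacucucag
In 13 cases a member had the seed of a miRNA numbered below 1000. Of these, miR-7002-3p shares its seed with miR-218-5p, a miRNA of motor neurons, and miR-6921-5p with miR-423-5p, a miRNA common in blood.
miR-7002-3p: uUGUGCUUccccuugccag
miR-218-5p: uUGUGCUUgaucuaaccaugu
miR-6921-5p: uGAGGGGCaugagguaggaagc
miR-423-5p: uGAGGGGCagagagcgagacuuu
Mean UMIs over the 8 libraries were 114.75 for miR-7002-3p and 77.9 for miR-218-5p, and 14.2 for miR-6921-5p and 276.5 for miR-423-5p.

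The members were low in level and close together. Mean UMIs had a median of 24.6 and a range of 10 to 525, with 27 members at 100 or more and 247 below 50. The 10 most abundant members held 22.3% of all member UMIs. In each library the 90th percentile of member UMIs was 7.08 to 17.2 times the 10th, against 10.1 to 28.5 times for the other miRNAs numbered 1000 or above and 41.9 to 162.5 times for miRNAs numbered below 1000. The only member at 0 in any library was miR-6897-5p in CSF of baseline males, where a count of 0 allows up to 3.98 CPM (UMIs scaled to the library's total, for 3 counts). In 233 members the mean was 10 or more in each fluid, in 8 in CSF only and in 71 in plasma only.

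The members took a smaller share of CSF libraries than of plasma libraries. They held 3.35% and 1.33% of UMIs in CSF of DOCA-salt females and males, and 3.41% and 1.54% in CSF of baseline females and males. In plasma they held 5.10% and 6.97% in DOCA-salt females and males, and 5.76% and 6.65% in baseline females and males. The fluids did not overlap, with means of 2.41% ± 1.13 in CSF and 6.12% ± 0.851 in plasma (SD, n = 4 each). The 2 male CSF libraries were lowest. The widest exact Clopper-Pearson 95% interval for the members in a single library was 6.53% to 6.77%, in plasma of baseline males. Such intervals cover counting error only. The other high-numbered miRNAs showed the same pattern, so the smaller share in CSF is not particular to the members. They held 11.5%, 2.88%, 10.9% and 4.28% of UMIs in the CSF libraries, in the order given above. In plasma they held 12.7%, 16.1%, 12.2% and 16.4%, again without overlap and again with male CSF lowest.

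The libraries differed in other ways beside this share. Total UMIs were 237878 to 1082504 in CSF and 158572 to 337240 in plasma. The 4 listed muscle miRNAs (miR-1a-3p, miR-133a-3p, miR-133b-3p and miR-206-3p), all detected, held 36.3% to 56.6% of UMIs in CSF and 0.276% to 1.49% in plasma. As a share of UMIs outside that list, the members held 5.26%, 2.61%, 5.56% and 3.55% in the CSF libraries, in the order given above, and 5.13% to 7.08% in plasma, so that the fluids then overlapped. Red cell miRNAs (4 listed) held 1.80% to 4.84% in CSF and 9.61% to 16.6% in plasma. Shares of UMIs give no absolute amounts, so neither the number of vesicles nor the RNA per vesicle can be read from them.

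**Figure D2:**
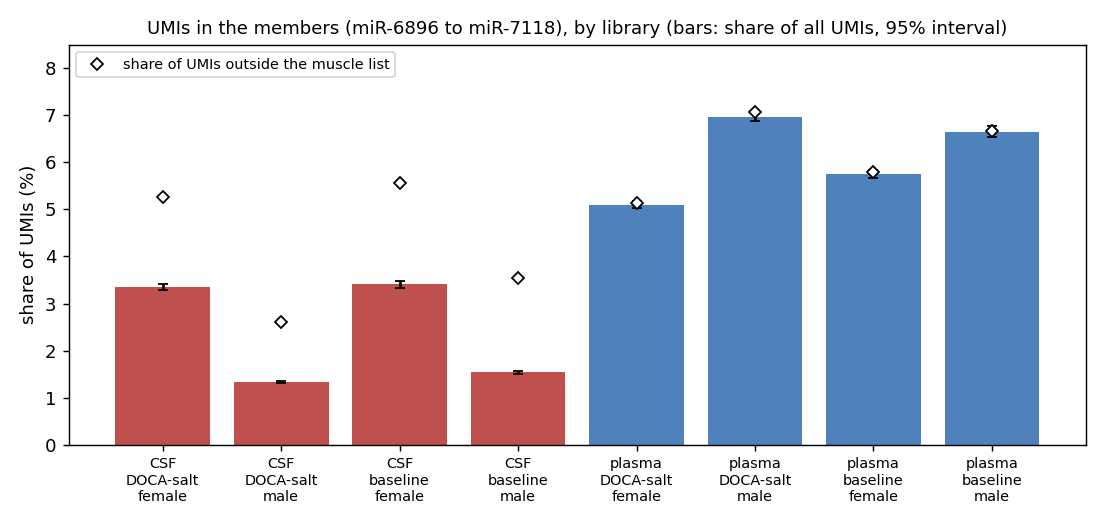
Share of each library's UMIs in the 312 miRNAs (bars, in percent, with exact 95% intervals) and the same share after leaving the 4 muscle miRNAs out of the total (diamonds), CSF in red and plasma in blue. The bars of CSF, 1.33% to 3.41%, lie below those of plasma, 5.10% to 6.97%, while the diamonds of the fluids overlap.

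CSF was then compared with plasma miRNA by miRNA. edgeR's quasi-likelihood test was run on UMI counts scaled by TMM (a scaling that assumes most miRNAs do not change) over all 1146 miRNAs that passed the count filter, with p-values adjusted after Benjamini and Hochberg and calls made under 0.05. Of all miRNAs tested, 26.2% were higher in CSF and 25.6% lower, 51.7% in all. Of the 298 members that passed the filter, 71 were higher and 80 lower in edgeR's test, with a median log2 fold change of -0.18 for members and -0.12 for all 1146. These shares stand close to the background. The 4 CSF libraries lay all above the 4 plasma libraries in 63 tested members and all below in 69, beside 43.5% of all miRNAs tested that separated either way. A member abundant only in plasma entered the list through plasma, so members with a mean of 10 or more in both fluids were counted apart. There 65 of 230 were higher and 45 lower. That limit leaves out 71 members that reach it in plasma only and 8 that reach it in CSF only. A shift toward CSF is thus built in, and no share of other miRNAs under the same limit was counted.

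The split depended on the scaling. Under scaling by total counts, which puts the median of all miRNAs at -1.70, 13 members were higher and 198 lower, with a member median of -1.77, beside 5.58% higher and 63.7% lower over all miRNAs. The 20 members named next kept their direction and their call under TMM, total-count scaling and every other alternative run.

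The members were also counted by arm, without a test of the difference between arms. Under TMM, 25 of 157 tested 5p members were higher in CSF and 50 lower, with a median of -0.43 on the log2 scale, against 85 higher and 74 lower of the 318 other 5p arms, with a median of 0.01. Of 141 tested 3p members, 46 were higher and 30 lower, with a median of 0.19, against 93 higher and 75 lower of the 308 other 3p arms, with a median of -0.03. Under total-count scaling both medians were negative, -2.01 for 5p and -1.36 for 3p members. The median share of pyrimidines was 27.3% in the 5p members higher in CSF and 34.8% in those lower, and the median share of A was 27.3% and 18.2% in the same order. In 3p members the median share of pyrimidines was 77.3% in those higher and 72.7% in those lower, and none of these differences was tested.

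For members with the same seed, the agreement in sign depended on the scaling. Of the 18 seeds held by more than 1 member, 16 had at least 2 tested members, and in these the fold changes had 1 sign in 7 seeds under TMM and in 15 under total-count scaling. Under TMM 138 of all 298 tested members had a positive fold change. Under total-count scaling the member median was -1.77, so members tend to share a negative sign whatever their seed. These counts are therefore no evidence about shared seeds. Under TMM the 3 carriers of CACCCUG had log2 fold changes of -0.35 (miR-7018-3p), -1.30 (miR-7023-3p) and -0.35 (miR-7068-3p), of which miR-7023-3p passed edgeR's test (adjusted p = 0.00976). miR-7002-3p was at -1.14 and passed (adjusted p = 0.0360), while miR-218-5p, with the same seed, was at 0.02 and did not (adjusted p = 0.979), a difference that was not itself tested.

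The member with the largest rise in CSF was miR-6947-5p (chr14:29988893-29988913, plus strand), from an intron of Actr8, which encodes a subunit of the INO80 chromatin remodeller. It had 364, 649, 500 and 925 UMIs in the CSF libraries of DOCA-salt females, DOCA-salt males, baseline females and baseline males, against 11, 21, 12 and 8 in the plasma libraries in the same order. No plasma library came near any CSF library. The log2 fold change was 6.27 ± 0.49 (SE), or 77.3-fold (edgeR's quasi-likelihood test, adjusted p = 3.63e-08), and 4.71 under total-count scaling.

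Next came miR-6965-3p (chr17:24240884-24240905, minus strand), which ends its intron in Ccnf, the gene of cyclin F, a substrate adaptor of a ubiquitin ligase. It had 222, 199, 425 and 514 UMIs in CSF, against 37, 27, 25 and 10 in plasma (24.7-fold, log2 4.63 ± 0.52, edgeR adjusted p = 1.40e-06). The CSF libraries of baseline mice were the highest. Its hairpin partner was not a member.

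miR-7036a-5p (chr5:137296661-137296683, minus strand) followed, from Srrt, which encodes a partner of the nuclear cap-binding complex that takes part in miRNA processing. It had 208, 1095, 377 and 956 UMIs in CSF, against 100, 101, 62 and 35 in plasma (13.7-fold, log2 3.78 ± 0.48, edgeR adjusted p = 4.34e-06). On the TMM scale its CSF libraries ran from 859 to 3165 CPM and its plasma libraries from 107 to 205.7 CPM. The lowest CSF library, that of DOCA-salt females, was still above every plasma library.

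The 7 other members of this rank rose 7.82-fold to 11.6-fold in CSF. They were miR-7058-3p (Lat, an adaptor of the T cell receptor), miR-7061-5p (Plekha1, a phosphoinositide-binding protein), miR-6906-5p (Spock2, a proteoglycan), miR-6997-5p (Sptan1, a spectrin), miR-7032-5p (Hip1r, an actin and clathrin linker), miR-7045-3p (Chd4, a chromatin remodeller) and miR-6981-5p (Arap3, a regulator of small GTPases). Their log2 fold changes lay between 2.97 ± 0.38 and 3.54 ± 0.56. That of miR-7032-5p was 3.13, and 2.37 without CSF of DOCA-salt females. Host genes name only the intron, and host transcripts were not measured. In the plasma libraries miR-6997-5p had 4 to 10 UMIs and miR-7061-5p 3 to 17. Both met the mean of 10 UMIs through CSF, so the selection itself favoured a rise there.

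Among the members lower in CSF, the largest separated fall was that of miR-6963-5p (chr15:103350497-103350520, minus strand), from Itga5, the gene of an integrin that binds fibronectin. It had 7, 15, 9 and 3 UMIs in CSF, against 179, 289, 166 and 130 in plasma (log2 -3.77 ± 0.43, 13.6-fold lower, edgeR adjusted p = 1.70e-06). All plasma libraries lay close together, at 345 to 507 TMM-scaled CPM. Few UMIs stand behind the CSF values, and the member met the mean of 10 UMIs through plasma.

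Also lower was miR-7036b-3p (chr5:34574192-34574213, plus strand), inside an intron of Add1, the gene of the membrane skeleton protein adducin. It had 16, 15, 12 and 34 UMIs in CSF, against 389, 343, 198 and 258 in plasma (log2 -3.25 ± 0.43, 9.51-fold lower, edgeR adjusted p = 7.26e-06). With read counts in place of UMIs its log2 fold change was -1.28 (adjusted p = 0.0206). It differs from most 3p members in not ending its intron and in its reads per UMI, given further on.

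The most abundant of the members lower in CSF was miR-6995-3p (chr19:47273519-47273539, minus strand), which ends an intron of Sh3pxd2a, a scaffold of podosomes. It had 94, 70, 63 and 68 UMIs in CSF, against 1166, 996, 1537 and 203 in plasma (log2 -2.87 ± 0.49, edgeR adjusted p = 0.000103). Plasma of baseline males, the shallowest library, was the lowest plasma value and still above CSF on the TMM scale, where CSF ran from 169.5 to 388 CPM and plasma from 623 to 3191 CPM.

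The 7 others were 7.03 to 10.5 times lower in CSF. They were miR-6900-3p (Ndufa10, a subunit of respiratory complex I), miR-6907-3p (Rrp1, a ribosome assembly factor), miR-7026-5p (Ep400, a chromatin remodeller), miR-7002-5p (Aqr, an intron-binding helicase of the spliceosome), miR-6956-5p (Triobp, an actin-binding protein), miR-6941-5p (Jag2, a Notch ligand) and miR-6904-5p (Parp1, a sensor of DNA breaks). The log2 fold change of miR-6907-3p was -3.28, and -2.44 without plasma of DOCA-salt males. In miR-6904-5p the groups nearly met, with a highest CSF value of 26.5 and a lowest plasma value of 27.6 TMM-scaled CPM. In the CSF libraries miR-6900-3p had 2 to 8 UMIs, miR-6907-3p 5 to 9, miR-7002-5p 3 to 15 and miR-6956-5p 2 to 8. These members met the mean of 10 UMIs through plasma, so the selection itself favoured a fall in CSF.

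**Figure D3:**
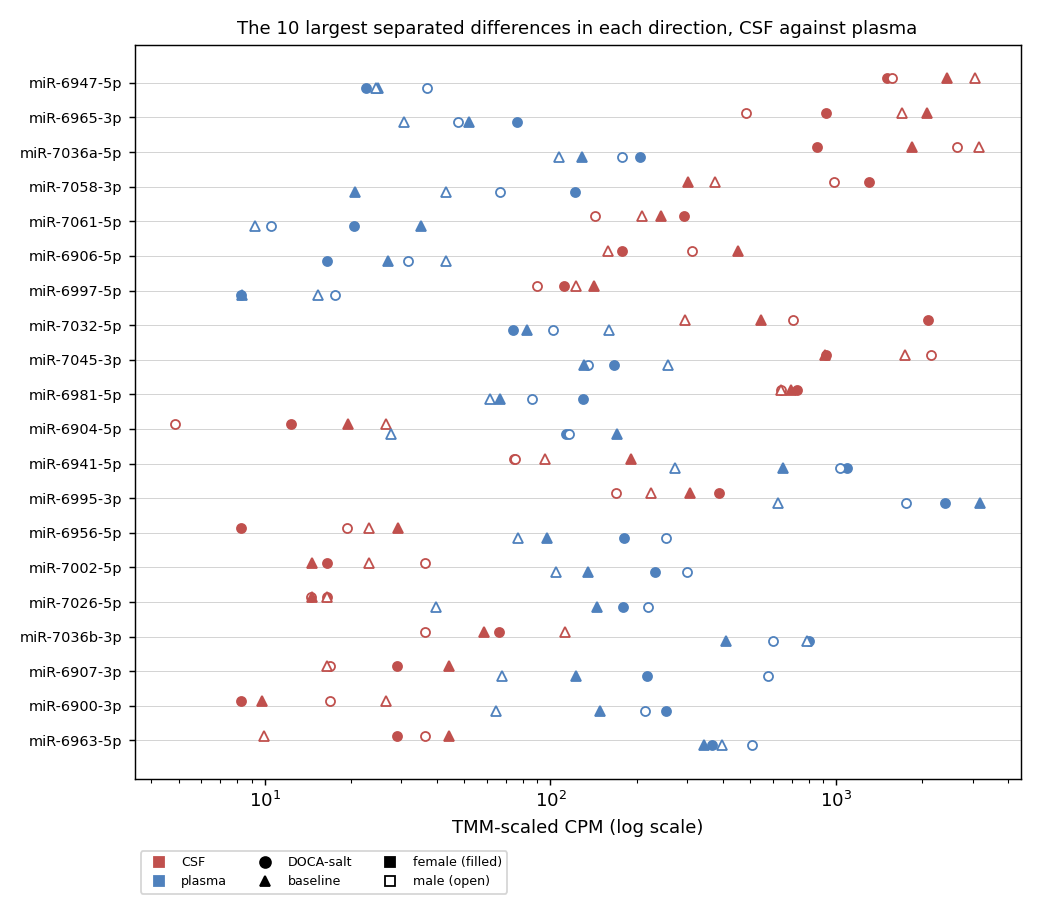
TMM-scaled CPM (log scale) of the 10 members with the largest separated difference in each direction, 1 point per library, CSF in red and plasma in blue, circles for DOCA-salt and triangles for baseline, filled for females and open for males. The upper 10 are higher in every CSF library, led by miR-6947-5p at 1504 to 3062 CPM in CSF against 22.6 to 36.9 CPM in plasma, and the lower 10 are lower in every CSF library.

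A larger fall belonged to a member whose libraries overlapped. miR-7066-3p ends an intron of Ncan, the gene of the brain proteoglycan neurocan. It had 2, 9, 3 and 5 UMIs in CSF, against 224, 169, 205 and 7 in plasma. The plasma library of baseline males held 21.5 TMM-scaled CPM, within the CSF range of 8.26 to 21.8 CPM, and the other plasma libraries held 297 to 461 CPM. The log2 fold change was -4.22 ± 0.67 (edgeR adjusted p = 4.99e-05). This member too met the mean of 10 UMIs through plasma.

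In miR-7069-3p, which lies at the end of an intron of Farsa, a tRNA synthetase gene, a single library set the value. It had 144 UMIs in CSF of DOCA-salt females and 5, 4 and 3 in the other CSF libraries, against 11, 18, 26 and 12 in plasma. The log2 fold change of 2.10 ± 0.88 did not pass (edgeR adjusted p = 0.0524). Without CSF of DOCA-salt females it was -1.37 and passed (adjusted p = 0.0367). It passed as a rise without CSF of DOCA-salt males (2.52, adjusted p = 0.0213), of baseline females (2.49, adjusted p = 0.0231) or of baseline males (2.52, adjusted p = 0.0167).

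The most abundant members in CSF were miR-6947-5p, miR-7036a-5p, miR-7045-3p, miR-6910-5p and miR-7044-3p. In plasma they were miR-6995-3p, miR-7044-3p, miR-7080-3p, miR-6941-5p and miR-7045-5p. Of these, miR-7044-3p stood in both lists, with 394, 616, 327 and 243 UMIs in CSF, against 456, 495, 296 and 1043 in plasma. The plasma value of baseline males, 3201 TMM-scaled CPM, was far above the 614 to 938 CPM of the other plasma libraries, and the fluids overlapped.

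Other mirtrons outside the number range also differed. Of 6 listed arms, 5 were tested. In CSF, miR-877-3p was higher by 1.29, miR-1224-5p by 1.64 and miR-1224-3p by 2.17 on the log2 scale, and miR-702-5p (-1.49) and miR-702-3p (-1.76) were lower, all past the threshold in edgeR's test. Under total-count scaling miR-877-3p was at -0.27 and miR-1224-5p at -0.02, and miR-1224-3p, at 0.65, did not pass (adjusted p = 0.270), so that none of the 3 rises passed there.

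The ratio of 5p to 3p arm within a hairpin does not depend on library scaling. Summed over members, the 5p share of UMIs was 48.5% ± 3.27 in CSF and 48.5% ± 2.64 in plasma (SD, n = 4 each). Without the most abundant member of each arm, miR-7036a-5p and miR-6995-3p, it was 45.7% ± 3.23 in CSF and 51.3% ± 3.68 in plasma. Single hairpins moved apart behind this sum. limma was fitted to log2 of 5p over 3p UMIs (0.5 added to each) in the 321 hairpins of either kind with a mean of 10 or more UMIs in both arms, a test added after the data were seen. Over all 321, 51.4% differed between the fluids (22.4% with a higher 5p share in CSF, 29.0% with a lower). Of the 124 hairpins with both arms among the members, 60 differed, 22 with a higher and 38 with a lower 5p share in CSF. The libraries of the fluids did not overlap in 59 of the 124, beside 47.0% of all 321. The median difference, CSF minus plasma, was -0.63 in members and -0.20 in the 197 other hairpins.

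The most abundant arm changed sides in some hairpins. In 14 of the 124 member hairpins 1 arm was the larger in every CSF library and the other arm in every plasma library, against 11.2% of all 321. The largest difference was in miR-7045. Its 5p arm had 44, 78, 12 and 26 UMIs in CSF, against 375, 518, 259 and 233 in plasma. Its 3p arm had 222, 884, 187 and 525 UMIs in CSF, against 81, 77, 63 and 84 in plasma. The 3p arm thus led in CSF and the 5p arm in plasma, in each of the 8 libraries. The log2 ratio of 5p to 3p was -3.51 ± 0.858 in CSF and 2.11 ± 0.526 in plasma (SD, n = 4 each), a difference of -5.62 ± 0.51 (SE, limma adjusted p = 1.71e-06).

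Other hairpins with a lower 5p share in CSF were miR-7058 (-4.53 ± 0.61), miR-6994 (-4.52 ± 0.66), miR-6909 (-3.59 ± 0.58) and miR-6984 (-3.53 ± 0.67), the values being differences of log2 5p over 3p. In miR-6909 the arms changed sides. Under TMM its 5p arm was lower in CSF (-2.18 on the log2 scale) and its 3p arm higher (1.42). Unlike the ratio of the arms, these fold changes depend on the scaling.
miR-6909-5p: cAGGGGGGcuggaaugggcacu
miR-6909-3p: uGCCUUCCccggccucccacag
The 5p arm had 8, 21, 4 and 19 UMIs in CSF, against 102, 141, 76 and 53 in plasma. The 3p arm had 124, 91, 90 and 66 UMIs in CSF, against 55, 85, 66 and 38 in plasma. The 3p arm was larger in every CSF library and the 5p arm in every plasma library.

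Hairpins with a higher 5p share in CSF were miR-6947 (5.56 ± 0.47), miR-7036a (4.71 ± 0.45), miR-7082 (3.64 ± 0.47), miR-7048 (3.45 ± 0.58) and miR-6908 (3.26 ± 0.52). In miR-6947 the 3p arm had 4, 13, 9 and 13 UMIs in CSF, against 4, 19, 12 and 8 in plasma, so that the difference lay in the 5p arm.
miR-6947-3p: gCAGCCUCuuucccuggcauca
In miR-7082, whose arms fill an intron of 88 bases, the 5p arm had 93, 69, 61 and 64 UMIs in CSF, against 31, 34, 22 and 20 in plasma, and the 3p arm 13, 5, 12 and 13 in CSF, against 52, 49, 58 and 38 in plasma. All 10 hairpins named here passed limma's test, with adjusted p of 0.000503 or less, and their fluids did not overlap.

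**Figure D4:**
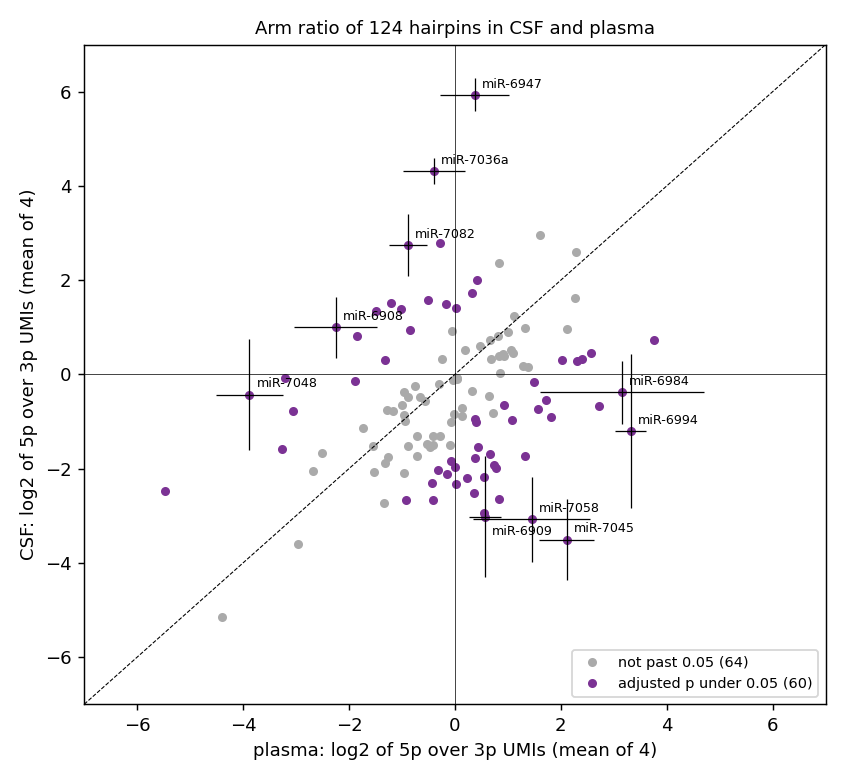
Mean log2 ratio of 5p to 3p UMIs in CSF (vertical) and in plasma (horizontal) for the 124 hairpins with both arms among the members, with those past limma's threshold in purple; bars are SDs over 4 libraries for the 10 named hairpins, and the dashed line marks equal ratios. Points such as miR-7045, at -3.51 in CSF and 2.11 in plasma, lie in a corner where the larger arm differs between the fluids.

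Both arms of a hairpin come from the same precursor, and in 113 hairpins both were tested between the fluids. In 52 of these (46.0%) the 2 arms had fold changes of opposite sign under TMM, against 78 of 174 other hairpins (44.8%). Both arms passed in opposite directions in 12 member hairpins, beside 11.8% of all 287 hairpins tested in both arms, and in the same direction in 17, beside 17.1%. These shares stand close to the background. Of the 17, 7 were higher and 10 lower in CSF. Under total-count scaling 34 of the 113 (30.1%) had arms of opposite sign, against 78 of all 287 (27.2%). Both arms passed in opposite directions in 6 of the 113, against 16 of the 287. Both passed as lower in 45 of the 113, against 106 of the 287, so these shares also stand close to the background.

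DOCA-salt was compared with baseline within each fluid, with sex as a term, which leaves 1 residual degree of freedom, so that the spread was largely borrowed across miRNAs. In plasma 1.07% of 1398 miRNAs passed edgeR's test, 0.286% higher and 0.787% lower after DOCA-salt. Of 308 members tested, 0 were higher after DOCA-salt and 1 lower, and 38 had an unadjusted p under 0.05 (24 higher, 14 lower), beside 13.7% of all miRNAs.

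The member that passed was miR-6986-5p, from Rce1, the gene of a protease that trims prenylated proteins. It had 10 and 21 UMIs in plasma of DOCA-salt females and males, against 60 and 23 in plasma of baseline females and males. The groups did not overlap on the TMM scale, with 20.6 and 36.9 CPM after DOCA-salt and 125 and 70.6 CPM at baseline. With 2 libraries against 2, such separation is common by chance. The log2 fold change was -1.77 ± 0.45 (edgeR adjusted p = 0.0428). The call was kept in edgeR's test with DESeq2 size factors (-1.74, adjusted p = 0.0158) and with no count filter (-1.75, adjusted p = 0.0235). It was lost, at a log2 fold change of similar or larger size, under total-count scaling (-1.93, adjusted p = 0.299) and with DESeq2 (-1.76, adjusted p = 0.997). The call was also lost with treatment as the only term (-1.80, adjusted p = 0.213) and with read counts (-2.35, adjusted p = 0.399). Fits with a library left out had treatment as the only term and left a single library in the group it came from. The log2 fold change was -1.44 without plasma of DOCA-salt females and -2.23 without that of DOCA-salt males. It was -1.24 without plasma of baseline females and -2.14 without that of baseline males. Calls in such fits are not read as a result about the members.

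In CSF 0.193% of 1036 miRNAs passed edgeR's test, 0.0965% higher and 0.0965% lower. Of 254 members tested 0 passed, with 16 at an unadjusted p under 0.05 (6 higher, 10 lower), beside 8.59% of all miRNAs. DESeq2 called 0 members. The lowest p among the higher ones belonged to miR-7058-3p, miR-7032-5p and miR-6896-3p, and among the lower ones to miR-7087-5p, miR-6965-3p and miR-7016-3p.

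Of these, miR-7058-3p had the higher value after DOCA-salt in each of 4 pairs of libraries. It had 314 and 404 UMIs in CSF of DOCA-salt females and males, against 62 and 114 in CSF of baseline females and males. In plasma it had 59 and 38 UMIs in DOCA-salt females and males, against 10 and 14 in baseline females and males. The log2 ratio of TMM-scaled CPM was 2.09 in females and 1.37 in males in CSF, and 2.49 in females and 0.62 in males in plasma. Neither fit passed: 1.72 ± 0.52 in CSF (edgeR adjusted p = 0.102) and 1.55 ± 0.47 in plasma (adjusted p = 0.0963). Because miR-7058-3p was picked for a low p in CSF in these same data, the agreement of its CSF pairs adds no support.

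Other members of this group were high in CSF and did not pass for treatment. miR-7032-5p had 508 and 292 UMIs in CSF of DOCA-salt females and males, against 112 and 89 in CSF of baseline females and males (log2 1.59 ± 0.51, edgeR adjusted p = 0.130). With treatment as the only term the value was 1.70. In that fit it was 0.82 without CSF of DOCA-salt females, 2.27 without CSF of DOCA-salt males and 2.20 without CSF of baseline females. miR-6965-3p had 917 and 482 TMM-scaled CPM in CSF of DOCA-salt females and males, against 2077 and 1701 in CSF of baseline females and males (log2 -1.51 ± 0.50, adjusted p = 0.137). In both, the 2 treated CSF libraries did not overlap the 2 baseline ones. Both were picked for a low p in these same data, and 2 libraries against 2 often separate by chance, so this adds no support.

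Whether the treatment difference was unequal in CSF and plasma was tested, CSF minus plasma, as an interaction term with 2 residual degrees of freedom. In edgeR's test 0.0% of 1146 miRNAs passed, so 0 of 298 members, with 19 members at an unadjusted p under 0.05, beside 8.12% of all. The lowest p belonged to miR-7069-3p, at 4.34 ± 1.01 on the log2 scale (adjusted p = 0.0944, 0.00763 under total-count scaling, 0.0214 with DESeq2 size factors and 0.657 with read counts), which rests on the 144 UMIs in CSF of DOCA-salt females. It was followed by miR-7049-5p, at -3.25 ± 0.89 (adjusted p = 0.387).

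Reads per UMI tell how often each captured molecule was copied and sequenced. For the members together they were 1.25, 1.97, 1.36 and 1.53 in CSF of DOCA-salt females, DOCA-salt males, baseline females and baseline males, against 5.40, 4.27, 4.94 and 7.44 in plasma in the same order. The means were 1.53 ± 0.317 in CSF and 5.52 ± 1.37 in plasma (SD, n = 4 each), with no overlap. Members had more reads per UMI than miRNAs numbered below 1000, which had 1.18 to 1.68 reads per UMI in CSF and 3.47 to 5.68 in plasma, and each library showed this order. The other miRNAs numbered 1000 or above had fewer than the members in each CSF library (1.22 to 1.90) and more in each plasma library (4.40 to 7.90). These values are summed reads over summed UMIs. Medians over single miRNAs with 5 or more UMIs were nearly equal. They were 1.23 to 1.94 in members and 1.23 to 1.95 in the other high-numbered miRNAs in CSF. In plasma they were 4.19 to 7.25 and 4.20 to 7.29. Arms differed little, with 5p members at 1.25 to 2.0 and 3p members at 1.24 to 1.94 in CSF, and 5p members at 4.32 to 7.38 and 3p members at 4.22 to 7.50 in plasma.

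A single member went against its library. miR-7036b-3p had 1.28, 1.23, 1.18 and 1.19 reads per UMI in the plasma libraries, the lowest of all members with 5 or more UMIs in each. In CSF it had 1.19, 1.93, 1.33 and 1.56 reads per UMI, near the other members. Its 1188 plasma UMIs came with 1.23 reads each, and only 10 of 676 miRNAs with 100 or more plasma UMIs were under 1.5. Among those 10, noted after the values were seen, were miR-486b-3p, let-7b-3p, miR-486a-3p and miR-122b-3p.

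The other ends of the range were milder. In plasma the next lowest were miR-7085-3p (2.30) and miR-6935-3p (2.34), and the highest miR-6951-5p (6.85), miR-7044-3p (6.81) and miR-7038-5p (6.73). In CSF the lowest were miR-6992-5p (1.10), miR-7055-5p (1.14) and miR-7005-3p (1.19), and the highest miR-7006-3p (2.13), miR-6897-5p (2.07) and miR-6913-5p (2.0), all but miR-7055-5p with fewer than 50 UMIs over the 4 CSF libraries.

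**Figure D5:**
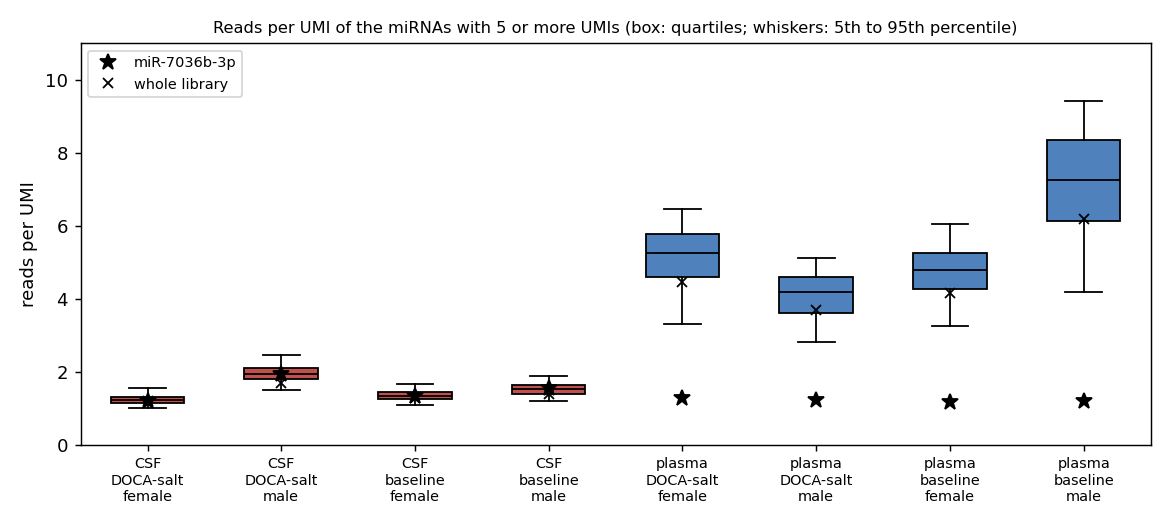
Reads per UMI in each library for the members with 5 or more UMIs (boxes show quartiles, whiskers the 5th and 95th percentiles), CSF in red and plasma in blue, with crosses for the whole library and stars for miR-7036b-3p. The star lies near the CSF boxes and far below every plasma box, at 1.18 to 1.28.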

How the data were processed

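The deposited tables hold, for each mature miRNA and library, counts of UMIs, counts of reads and CPM. Per the labels' protocols the authors used a QIAseq miRNA kit with UMIs, trimmed with Cutadapt 2.7 and aligned to miRBase, and per the submitters' processing notes they used Bowtie 1.3.0 and builds mm10 and GRCm38. The authors' CPM equalled UMIs over the library total in all but 2 non-member rows. Total UMIs per library were 158572 to 1082504.

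UMI counts were filtered (filterByExpr), scaled by TMM and tested with edgeR 4.0.16 (quasi-likelihood, two-sided, Benjamini-Hochberg over all miRNAs tested, threshold 0.05) in R 4.3.3. Fluid was the only term for CSF against plasma (6 residual degrees of freedom), and sex was a term for treatment. limma 3.58.1 tested arm ratios (added after the data were seen), and DESeq2 1.42.0 was an alternative, beside other scalings, no filter, read counts, a block of sex and treatment, and each library left out. Treatment fits with a library left out had treatment as the only term. The alternatives for the interaction were also added after the data were seen. Replicate numbers come from no label, so the block is no stated pairing. Scripts were tested on simulated data. Introns are from GENCODE M21, sequences from RefSeq.

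Members and lists were chosen with earlier results of these data known. Members were named if among the 10 largest separated changes per direction between fluids, past the threshold or lowest in p for treatment (3 per direction) or interaction (2), among the 5 most abundant per fluid, at the 3 extremes of reads per UMI, nearest the limit, or markers of the set (miR-6947-5p, miR-7066-3p, miR-7069-3p, miR-7058-3p). Of 124 hairpins only the 5 largest arm differences per direction are named.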

Additional observations from a re-analysis of the deposited data

Results flagged for a closer look

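In 142 groups of 4 libraries, 9 had a highest or lowest library whose gap to the nearest other library, over the group's range, passed Dixon's 95% critical value. Chance flags about 1 in 20 groups. In CSF, miR-7069-3p was at 595 TMM-scaled CPM in DOCA-salt females, above the other CSF libraries at 9.93 to 19.6 CPM, and miR-7044-3p was at 804 CPM in baseline males, below the other CSF libraries. In plasma of baseline males, miR-7044-3p was at 3201 CPM and miR-7080-3p at 1443 CPM, above the other plasma libraries, and miR-6994-5p was at 249 CPM, below them. The highest plasma value of miR-6947-5p was 36.9 CPM, in DOCA-salt males, and that of miR-6992-5p was 51.9 CPM, in baseline females. For log2 of 5p over 3p in plasma, miR-6994 was lowest at 2.88 in baseline females and miR-6947 was highest at 1.35 in DOCA-salt females.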

How the results depend on the processing

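Of the 20 members named for CSF against plasma, every value under every alternative run kept its direction and its side of the threshold (1.29 to 6.47 for those higher, -5.34 to -1.28 for those lower, the last for miR-7036b-3p with read counts). Total-count scaling gave 13 members higher and 198 lower. A block of sex and treatment combination gave 67 higher and 75 lower members and 24 and 41 called arm ratios, close to the counts without the block. Leaving out each library gave 64 to 73 members higher, 54 to 74 lower, and 531 to 587 miRNAs called in all. For DOCA-salt in plasma, DESeq2 size factors called 4 members higher and 29 miRNAs in all, and no count filter called 3 and 29. Total-count scaling, the joint fit, treatment alone and read counts called 0 members and 0 miRNAs, and DESeq2's test 0 and 1. Each library left out in turn gave 0 to 19 members higher, 0 to 2 lower and 0 to 75 miRNAs in all. For DOCA-salt in CSF, no count filter called 1 member and 4 miRNAs, and the other alternatives that kept every library called 0. For the interaction, total-count scaling and DESeq2 size factors each called 1 member and 2 miRNAs. A mean of 20 or more left 194 members and, of 52 hairpins, 11 arm ratios higher and 20 lower, and leaving out each library gave 17 to 22 and 36 to 40. Within 20 bases, 26 5p arms stood at an intron edge, and the 5p share was 45.7% in CSF and 51.3% in plasma without the most abundant member of each arm. Signs between fluids turned in 9 named members, and the cause was not tested. Of these, miR-7055-5p (1.34), miR-6955-3p (1.25) and miR-7048-5p (1.31) were called rises under TMM. Under total-count scaling miR-7087-5p was at -1.74, miR-7055-5p -0.16, miR-7085-3p -1.46, miR-6955-3p -0.18, miR-6947-3p -1.13, miR-7048-5p -0.15 and miR-6908-5p -0.70. With sex and treatment added, miR-7087-5p was at -0.25 and miR-7044-3p at 0.17, and with the block at -0.27 and 0.32. With DESeq2 size factors and with DESeq2's test miR-7044-3p was at 0.038 in each. Leaving out each library gave -0.91 to 0.43 for miR-7087-5p, -1.37 to 2.52 for miR-7069-3p, -0.27 to 0.77 for miR-7044-3p and -0.043 to 0.30 for miR-7085-3p. CSF values of members lower there rest on few UMIs, which limits their fold changes.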
